A study of Homo sapiens with 12 samples.

Results

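TC71 is a cell line established from a Ewing sarcoma, a tumour of bone and soft tissue driven by the fusion transcription factor EWS-FLI1. The 6 libraries described here, of 12 in the series, were chosen by their labels as the TC71 cells with and without induction of c-Jun and c-Fos. Both TC71 groups carried the same lentiviral Tet-On system, in which the Tet3G transactivator was made from the EF1 alpha promoter and a TRE3G promoter drove c-Jun and c-Fos joined by a self-cleaving 2A peptide, and the cells had been selected with geneticin and puromycin. The doxycycline group (3 libraries, labelled AP1_overexpression) received 2000 ng/ml doxycycline and the vehicle group (3 libraries, labelled WT) received DMSO, both for 72 h. Whether the line was 1 clone or a pool was not stated in the sources used here. No doxycycline-treated TC71 cells without the transgenes were used here, so the effect of the drug and that of c-Jun and c-Fos cannot be told apart. The other 6 libraries, of the line EW8 with the same system and treatments, enter only the last comparison.

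AP-1 is a transcription factor made of pairs of basic leucine zipper proteins, most often a FOS family member with a JUN family member, and it binds a short DNA site found in many enhancers and promoters. Growth factors, stress and cytokines raise AP-1 activity, and known targets include matrix-degrading proteases, integrins, cytokines and the AP-1 genes themselves. EWS-FLI1 keeps a set of mesenchymal and matrix genes low in Ewing sarcoma cells while it activates others.

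Read counts per gene summed to between 43664892 and 60853649 in the 6 TC71 libraries. Vehicle replicate 1 stood apart from the other vehicle libraries. Set against counting noise, its counts differed from those of replicates 2 and 3 with a chi-square per gene of 66.8 and 63.9, whereas replicates 2 and 3 differed by 9.29 and the doxycycline libraries by 6.3 to 10.6. Among the 14227 genes with a mean of at least 1 CPM (counts scaled by TMM to the same library total), 216 differed over 2-fold between vehicle replicate 1 and the mean of the other two, against 16 and 37 for vehicle replicates 2 and 3 and 5 to 16 for the doxycycline libraries. The first principal component, with 79.4% of the variance, nevertheless placed all 3 vehicle libraries (-89.5, -83.7 and -85.1) apart from all 3 doxycycline libraries (85.1 to 86.9). The second, with 7.21%, placed vehicle replicate 1 at 50.1 and the other vehicle libraries at -18.2 and -33.4. The counts over all genes, the genes with the largest changes and the calls that turned on this library are therefore given with and without it. Nothing in the labels says that the replicates were separate cultures, so the p-values measure only the spread between these libraries.

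Induction raised both transgene products' genes. JUN (chr1:58780788-58784327, hg38, minus strand) stood at 17.9, 18.6 and 25 CPM with vehicle and 738, 805 and 699.9 CPM with doxycycline (log2 fold change 5.19 ± 0.13 (SE), adjusted p = 7.67e-11). FOS (chr14:75278774-75282230, hg38, plus strand) stood at 11.1, 11.9 and 11.6 CPM with vehicle and 1583, 1669 and 1439.5 CPM with doxycycline (log2 fold change 7.08 ± 0.087 (SE), adjusted p = 4.04e-13). The groups did not overlap for either gene, and the libraries labelled doxycycline thus carried the induced genes. Without vehicle replicate 1 the log2 fold changes were 5.08 and 7.03. Transgene and endogenous reads fall into the same counts and were not separated. The SE printed with each log2 fold change was back-calculated from the test, as described with the processing.

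Past the fold limit, more genes rose than fell after induction. edgeR's quasi-likelihood test called 2245 genes higher and 642 lower of 18261 tested, where a call needs an adjusted p below 0.05 and a log2 fold change beyond 1 in either direction. These are 12.3% and 3.52% of the genes tested. Without the fold limit 4745 genes were higher and 3779 lower (26% and 20.7%). Scaled by library size alone, 2043 were called higher and 829 lower with the limit, but 4126 were higher and 4868 lower without it, so the direction of the imbalance among small changes turned with the scaling. Genes called higher were thus 77.8% of all calls, and they rose further than the others fell: 756 rose by more than 3 on the log2 scale and 33 fell by more than 3. Together the genes called higher held 4.32%, 4.52% and 4.47% of the reads in the vehicle libraries and 15.2%, 15.3% and 15.1% in the doxycycline libraries. For 374 of them (16.7%) every vehicle library was at or under 6 counts, which is 3 read pairs and is treated here as the floor. Of the genes called lower, 54 reached the floor in all doxycycline libraries. Protein-coding genes made up 1850 of the genes called higher and 483 of those called lower. The groups did not overlap for 2242 of the 2245 and 632 of the 642, and for 56.1% of all genes tested. In bulk RNA, fewer cells in a state and less RNA per cell cannot be told apart. Reads were counted without strand, so reads in exons that 2 genes share on opposite strands cannot be given to either, which touches 20 of the 61 genes named below for the size of their change or for the study's interest in them, among them VIM, VCL, FAP, MMP1, FLNC, CD44, TNC, APP, FLNA, IGFBP5, PRPH and MCM2.

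**Figure D1:**
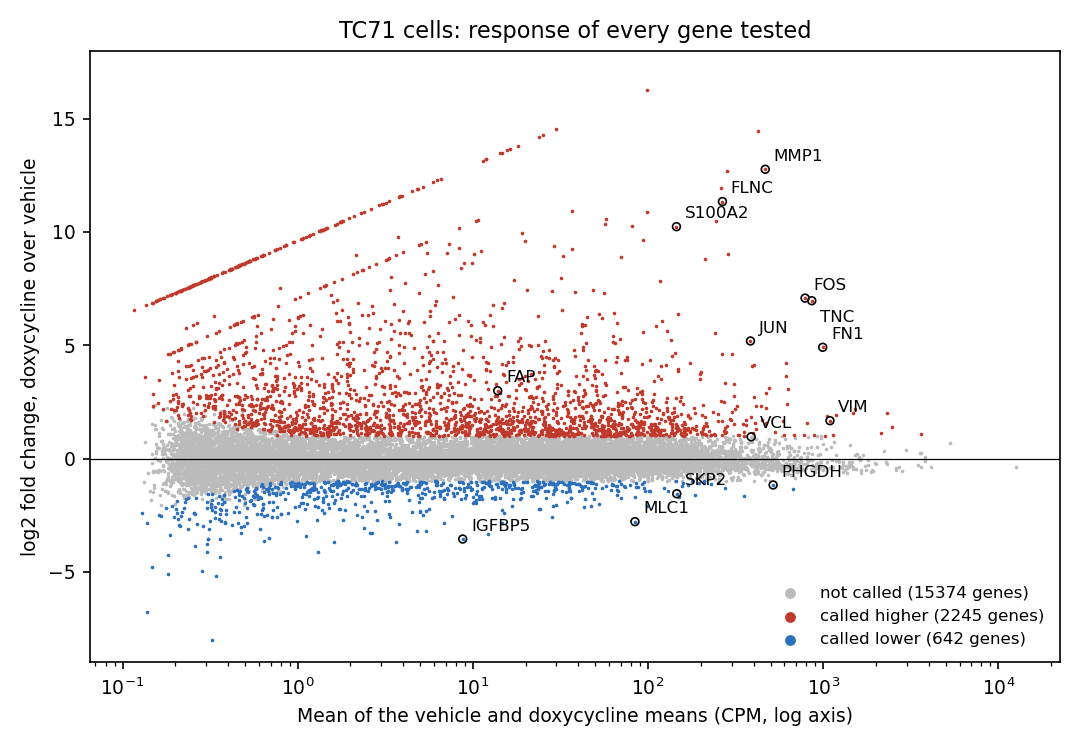
Log2 fold change (vertical axis) of each of the 18261 genes tested in TC71 cells against its mean level in CPM (horizontal log axis). Points are genes: red called higher, blue called lower, grey not called, and the straight upper bands are genes with no reads, or almost none, in the vehicle libraries, whose fitted fold change depends on the prior count. Of the red points 756 lie above 3, and of the blue points 33 lie below -3.

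Without vehicle replicate 1, 2360 genes were called higher and 714 lower of 18886 tested. Of the genes called with all 6 libraries, 2073 higher and 545 lower were called again, 172 higher and 97 lower were not, and 0 of those tested in both changed direction. Among the new calls, 146 higher and 29 lower were of genes not tested before. The spread between libraries was smaller without it, with a common dispersion of 0.00751 against 0.0195 and prior degrees of freedom of 21.6 against 7.06, so adjusted p-values of the same genes were far smaller too. Across genes, the deviation of vehicle replicate 1 from replicate 2 had a correlation of r = 0.0013 with the doxycycline response measured against replicate 3, and r = 0.0037 with replicates 2 and 3 exchanged (14227 genes, a description over genes).

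Among the proteins the study blotted were 4 related to matrix and adhesion, fibronectin (FN1), vinculin (VCL), vimentin (VIM) and the fibroblast activation protein (FAP). FN1, a matrix glycoprotein that integrins bind, stood at 40.8, 74.9 and 76.1 CPM with vehicle and 1806, 1965 and 1996 CPM with doxycycline (log2 fold change 4.91 ± 0.21 (SE), adjusted p = 5.8e-09). Its doxycycline libraries all lay above its vehicle libraries, of which replicate 1 was the lowest, and without that replicate the log2 fold change was 4.65. VIM, the intermediate filament of mesenchymal cells, stood at 532, 502 and 532 CPM with vehicle and 1717, 1606 and 1663 CPM with doxycycline (log2 fold change 1.67 ± 0.059 (SE), adjusted p = 1.07e-09), with 1.66 without vehicle replicate 1. FAP, a cell-surface serine protease of activated fibroblasts, stood at 1.99, 3.53 and 3.74 CPM with vehicle and 23.2, 24.1 and 26.6 CPM with doxycycline (log2 fold change 2.99 ± 0.20 (SE), adjusted p = 2.67e-07), with 2.74 without vehicle replicate 1. VCL, which ties integrin adhesions to actin, stood at 248, 271 and 271 CPM with vehicle and 516, 523 and 497 CPM with doxycycline (log2 fold change 0.96 ± 0.061 (SE), adjusted p = 1.52e-07). It was higher in all 3 doxycycline libraries and passed the test, but its fold change lay below the limit of 1, with 0.90 without vehicle replicate 1.

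Among protein-coding genes with at least 10 CPM after induction and at least 1 vehicle library above the floor, the largest rises included a protease, 2 calcium-binding S100 proteins and a filamin. MMP1, the interstitial collagenase (chr11:102789920-102798160, hg38), stood at 0.227, 0.0318 and 0.153 CPM with vehicle and 961, 896 and 942 CPM with doxycycline (log2 fold change 12.77 ± 0.20 (SE), adjusted p = 2.6e-12). S100A16 and S100A2, small calcium-binding proteins, rose by 11.94 ± 0.27 and 10.23 ± 0.13 (log2 ± SE), with doxycycline means of 525 ± 23.1 and 290.2 ± 12.8 CPM (SD, n = 3). FLNC, a filamin that crosslinks actin, stood at 0.114, 0.318 and 0.153 CPM with vehicle and 522, 572 and 501 CPM with doxycycline (log2 fold change 11.34 ± 0.17 (SE), adjusted p = 1.96e-12). The vehicle libraries of these genes held few reads, so the size of the fold change rests on counts close to the floor, although the doxycycline level does not. At such counts the printed SE can lie below counting noise. At least MMP1 and FLNC, and CD44 below, needed their doxycycline libraries to pass the filter on low counts. They were tested because doxycycline was high, so their calls are no further support.

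Other genes of this set were IL13RA2, a decoy receptor for interleukin-13 (10.37 ± 0.20), AHNAK2 (10.25 ± 0.26), the growth factor FGF1 (9.67 ± 0.19), the hyaluronan receptor CD44 (9.62 ± 0.35) and the adhesion receptor ADGRG1 (9.24 ± 0.30), all as log2 fold change ± SE. CD44 stood at 0, 0.127 and 0 CPM with vehicle and 41.8, 38.3 and 38.2 CPM with doxycycline. The 9 genes given here were called without vehicle replicate 1 as well, with log2 fold changes between 8.68 and 13.33.

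Among the genes called higher, the largest gains in CPM, a difference that is not corrected for gene length, were in genes that also had high levels before induction and in FN1, FOS and TNC. APP, the amyloid precursor protein, rose from 919 ± 63.1 to 3687 ± 59 CPM (SD, n = 3), and PKM, the pyruvate kinase of glycolysis, from 2310.5 ± 85.1 to 4913 ± 213 CPM. FLNA, the ubiquitous filamin, rose from 1374 ± 98 to 3587 ± 352 CPM. ANXA2, a calcium-dependent membrane-binding annexin, MYH9, a nonmuscle myosin heavy chain, and TMSB10, an actin monomer-binding thymosin, rose by 2.18 ± 0.062, 1.99 ± 0.071 and 1.92 ± 0.082 on the log2 scale. TNC, tenascin-C, stood at 9.9, 16.1 and 14.9 CPM with vehicle and 1725, 1764 and 1631 CPM with doxycycline (log2 fold change 6.97 ± 0.17 (SE), adjusted p = 5.32e-11). YWHAZ, a 14-3-3 protein often used as a reference gene, rose by 1.12 ± 0.053, and FN1 and FOS, given above, completed the 10. All 10 were called without vehicle replicate 1 as well, with log2 fold changes from 1.04 to 7.03.

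**Figure D2:**
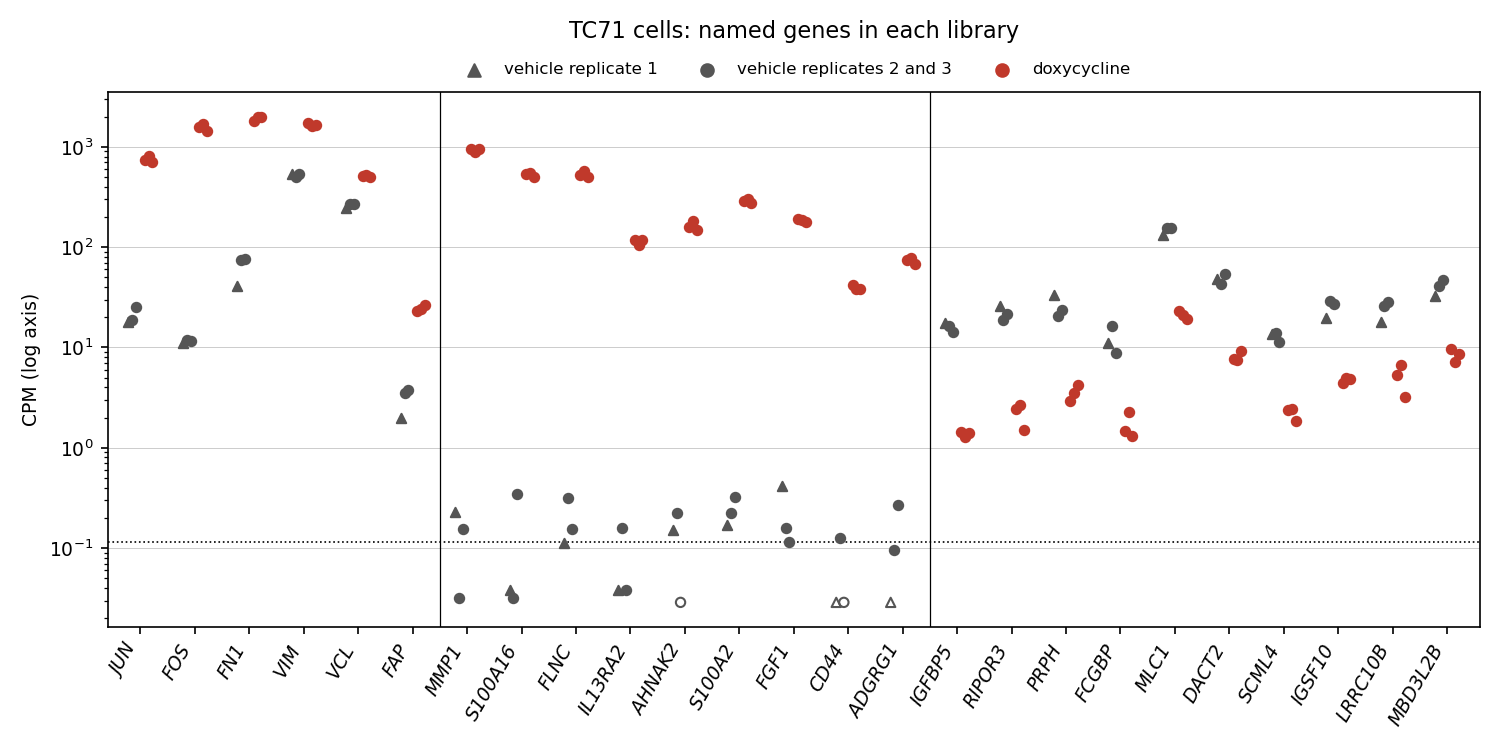
CPM of 25 genes (log axis) in each TC71 library, with grey triangles for vehicle replicate 1, grey circles for vehicle replicates 2 and 3 and red circles for doxycycline. The left block holds JUN, FOS, FN1, VIM, FAP and VCL, the middle block 9 of the 10 largest rises and the right block the 10 largest falls. Rises and falls are ranked among protein-coding genes past the limits on level given in the text. Open symbols are libraries with 0 counts drawn at the foot of the axis, the dotted line is the CPM of 6 counts, and no red point overlaps the grey points of its gene.

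Among protein-coding genes with a mean of at least 10 CPM with vehicle, the largest falls were smaller than the rises above. The 10 largest falls named here are of that set. IGFBP5, a binding protein of insulin-like growth factors, stood at 17.7, 16.5 and 14.2 CPM with vehicle and 1.44, 1.28 and 1.4 CPM with doxycycline (log2 fold change -3.55 ± 0.16 (SE), adjusted p = 8.91e-09). MLC1, a membrane protein best known from astrocytes, stood at 131, 155 and 155 CPM with vehicle and 23.4, 21.3 and 19.3 CPM with doxycycline (log2 fold change -2.79 ± 0.095 (SE), adjusted p = 8.16e-10). PRPH, the neuronal intermediate filament peripherin, stood at 33.1, 20.5 and 23.8 CPM with vehicle and 2.94, 3.5 and 4.25 CPM with doxycycline (log2 fold change -2.85 ± 0.20 (SE), adjusted p = 3.59e-07). In each of the 3 the doxycycline libraries all lay below the vehicle libraries. RIPOR3 (-3.33 ± 0.20), FCGBP (-2.84 ± 0.27), DACT2, a modulator of Wnt and TGF-beta signals (-2.58 ± 0.12), SCML4 (-2.55 ± 0.17), IGSF10 (-2.42 ± 0.16), LRRC10B (-2.26 ± 0.24) and MBD3L2B (-2.25 ± 0.15) made up the rest of the 10 largest falls. MBD3L2B belongs to a family of near-identical copies, so its count is uncertain. All 10 were called lower again without vehicle replicate 1, with log2 fold changes between -3.50 and -2.40.

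Among the genes called lower, LRATD2 fell the most in CPM, from 972 ± 65.7 to 380.5 ± 6.27 CPM (SD, n = 3). PHGDH, the first enzyme of serine synthesis, stood at 457, 814 and 877 CPM with vehicle and 316, 343 and 298 CPM with doxycycline (log2 fold change -1.17 ± 0.19 (SE), adjusted p = 0.000313), and MFAP4, a microfibril-associated glycoprotein, at 279.9, 659.6 and 671 CPM with vehicle and 175, 176 and 166 CPM with doxycycline (log2 fold change -1.64 ± 0.25 (SE), adjusted p = 0.000224). Vehicle replicate 1 was the lowest of the 3 vehicle libraries for both, nearest to the doxycycline libraries, and without it the log2 fold changes were -1.43 and -1.97. DCLRE1A, a DNA crosslink repair nuclease (-1.29 ± 0.08), GRP, the gastrin-releasing peptide (-1.59 ± 0.061), the histone variant gene MACROH2A2 (-1.06 ± 0.10), LBH (-1.71 ± 0.067), the helicase subunits MCM2 (-1.11 ± 0.079) and MCM6 (-1.09 ± 0.078), and SKP2, which targets the cell cycle inhibitor p27 for destruction (-1.55 ± 0.059), were the others. These 10 were likewise called lower again without vehicle replicate 1, with log2 fold changes between -1.97 and -1.20.

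The 7-base AP-1 site, TGACTCA or its reverse complement TGAGTCA, was looked for in the 250 bases before each gene's start in RefSeq (GRCh38.p14). Promoters matched 11822 of the 18261 genes tested by symbol. At least 1 window of the gene held the site for 179 of 1574 matched genes called higher (11.4%), 15 of 400 called lower (3.75%) and 333 of 9848 not called (3.38%), against 5.19% of all 27305 genes in the table. Counted by window, since genes differ in how many starts they have, the shares were 7.66%, 2.59%, 2.51% and 4.2%. These shares are a description, and a match is not evidence that the site is bound. Promoters of 4 genes called higher are shown 5′ to 3′ on the gene's strand because they hold the site, with the site in capitals, 2 from the largest rises given above and 2 from the gene lists below. They are S100A2 (chr1:153565845-153566094, minus strand, first base of the site at -52 from the start), IL11, an interleukin of the IL-6 family (chr19:55370464-55370713, minus strand, -96), LAMB3, the beta chain of laminin-332 (chr1:209651375-209651624, minus strand, -67) and ADGRG1 (chr16:57628380-57628629, plus strand, -192 and -113).

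S100A2: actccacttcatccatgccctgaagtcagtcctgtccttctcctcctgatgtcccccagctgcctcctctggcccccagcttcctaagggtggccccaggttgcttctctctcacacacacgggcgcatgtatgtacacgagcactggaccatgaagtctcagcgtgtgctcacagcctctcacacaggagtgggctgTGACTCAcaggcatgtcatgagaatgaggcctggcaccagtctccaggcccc
IL11: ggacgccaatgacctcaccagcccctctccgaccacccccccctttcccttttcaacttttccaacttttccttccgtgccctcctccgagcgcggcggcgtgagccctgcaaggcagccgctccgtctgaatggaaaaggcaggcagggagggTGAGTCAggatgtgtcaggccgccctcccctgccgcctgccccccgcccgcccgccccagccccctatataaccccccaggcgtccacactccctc
LAMB3: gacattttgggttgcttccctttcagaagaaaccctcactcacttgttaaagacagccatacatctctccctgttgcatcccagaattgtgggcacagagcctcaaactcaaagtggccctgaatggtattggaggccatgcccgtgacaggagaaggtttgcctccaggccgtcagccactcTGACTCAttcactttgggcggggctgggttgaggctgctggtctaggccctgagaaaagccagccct
ADGRG1: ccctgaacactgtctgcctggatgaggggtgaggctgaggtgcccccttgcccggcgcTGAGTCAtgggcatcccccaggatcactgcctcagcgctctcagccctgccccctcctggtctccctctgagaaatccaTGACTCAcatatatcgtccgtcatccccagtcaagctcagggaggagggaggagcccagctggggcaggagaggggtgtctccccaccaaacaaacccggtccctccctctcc

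The windows of S100A2, LAMB3 and ADGRG1 are 1 of several RefSeq starts of each gene, and the counts do not tell from which start the reads came. JUN, FOS, FN1, TNC, FLNC and MMP10 held no such 7 bases in the windows given for them.

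The gene lists that follow are described by how many tested members were called, to be read against the 12.3% called higher and 3.52% called lower over all genes, whose median log2 fold change was -0.01. A list's count without vehicle replicate 1 is over the same tested members. A member at or under the floor in all vehicle libraries passed the filter on low counts through its doxycycline libraries alone and so had to differ, and its call adds nothing to a list's count. Such members made up 5 of 22 in the list of matrix proteases, 3 of 29 in that of basement membrane genes, 5 of 14 chemokines and cytokines, 5 of 36 growth factors and receptors, 3 of 34 interferon-response genes, 2 each of 20 integrins, 15 epithelial genes and 15 ETS genes with EWSR1, and no more than 1 in the other lists, apart from the markers of blood and endothelium. Some members above that floor, MMP1 and FLNC among them, also had vehicle counts too low to pass the filter without doxycycline. Their calls add nothing either. They were not counted here, so the numbers just given are minimum numbers.

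**Figure D3:**
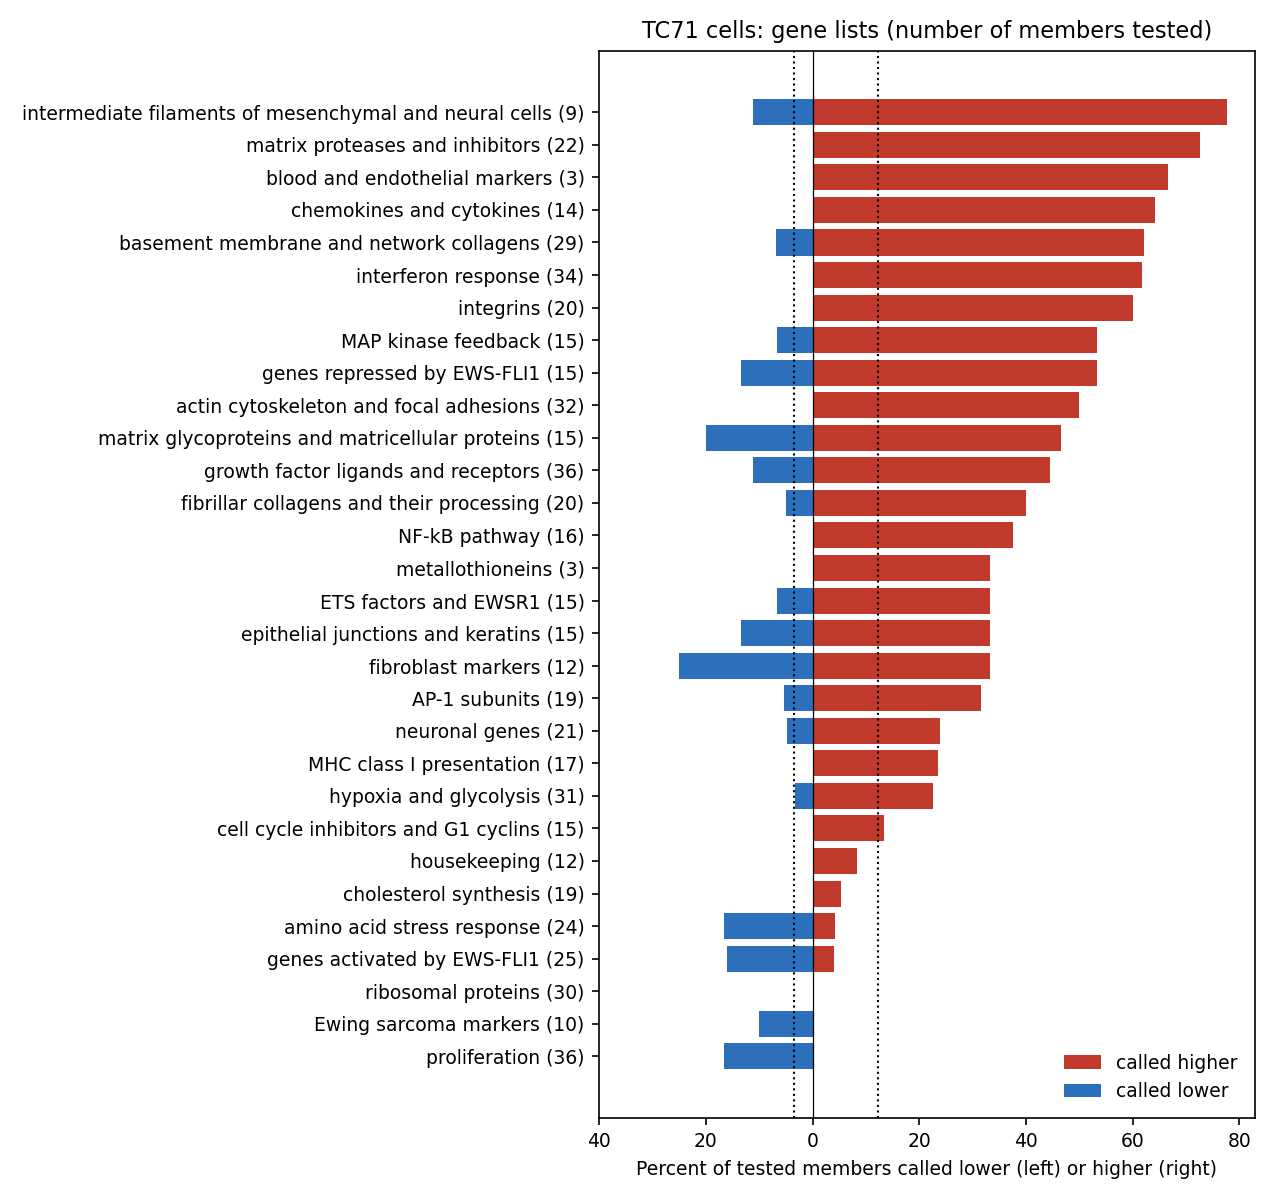
Percent of the tested members of each gene list called higher (red, right) or lower (blue, left) in TC71 cells, with the number of members tested in brackets. Members at the vehicle floor are included. The dotted lines mark the shares over all genes tested, 12.3% and 3.52%, and the red bars of intermediate filaments, matrix proteases and basement membrane genes pass theirs while proliferation genes have a blue bar only.

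Of the 19 tested AP-1 subunits and partners, 6 were called higher and 1 lower. The 6 include JUN and FOS, whose rise was fixed in advance by the induced transgenes. All 4 FOS family genes rose, counting the induced FOS itself. FOSL1 (FRA1), which replaces FOS in sustained AP-1 activity, stood at 1.59, 1.57 and 2.09 CPM with vehicle and 85.1, 85.6 and 74 CPM with doxycycline (log2 fold change 5.55 ± 0.13 (SE), adjusted p = 3.81e-11), and FOSL2 (FRA2) at 18.7, 13.9 and 12.6 CPM with vehicle and 128, 136 and 133 CPM with doxycycline (log2 fold change 3.14 ± 0.13 (SE), adjusted p = 3.59e-09). FOSB rose little, from 0.825 ± 0.392 to 1.85 ± 0.387 CPM, and its log2 fold change of 1.16 was 0.89 without vehicle replicate 1, below the fold limit. The adjusted p of FOSB rose to between 0.088 and 0.0947 without vehicle replicate 2, doxycycline replicate 1 or doxycycline replicate 2. In the JUN family, JUNB passed the test below the fold limit (0.57, adjusted p = 0.000123) and JUND did not pass (-0.28, adjusted p = 0.259). Among the MAF proteins, MAFK rose (2.00 ± 0.10) and MAFA fell (-3.27 ± 0.27), and 2 of the 19 were called lower without vehicle replicate 1. None of the 7 tested ATF and BATF partners was called. Of those, ATF3 (0.51, adjusted p = 0.362) and JDP2 (0.42, adjusted p = 0.366) had vehicle replicate 1 well below the other vehicle libraries, and ATF3 was called higher without vehicle replicate 3 (1.32, adjusted p = 0.00278).

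Proteases that degrade the matrix rose with their regulators. Of 22 tested members of this list 16 were called higher and 0 lower, with a median log2 fold change of 4.10 (3.51 with the 5 genes at the vehicle floor set at their bound). MMP10, stromelysin-2, stood at 0, 0.0953 and 0 CPM with vehicle and 857, 832 and 873 CPM with doxycycline, at least 7426-fold. MMP3, stromelysin-1, and MMP12, the macrophage elastase, were at 0 in all vehicle libraries and rose at least 197-fold and 249-fold. MMP1 and MMP3 share exon sequence with the antisense gene WTAPP1. The gelatinases MMP2 (4.08 ± 0.11) and MMP9 (4.92 ± 0.41) and the membrane-type MMP14 (1.83 ± 0.14) and MMP15 (1.60 ± 0.13) had smaller log2 fold changes.

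All 6 genes of the plasminogen system were called higher. PLAU, urokinase, stood at 0.151, 0.445 and 0.287 CPM with vehicle and 25, 24.1 and 25.2 CPM with doxycycline (log2 fold change 6.35 ± 0.24 (SE), adjusted p = 1.63e-09), and its receptor PLAUR at 11.6, 15.8 and 13.6 CPM with vehicle and 245, 253 and 217 CPM with doxycycline (log2 fold change 4.12 ± 0.11 (SE), adjusted p = 1.5e-10). PLAT, the tissue-type activator, rose by 4.73 ± 0.12, and the inhibitors SERPINE2 and SERPINB2 by 1.33 ± 0.065 and at least 82.9-fold. Activators and inhibitors thus rose side by side. Of the TIMP inhibitors of metalloproteinases, TIMP2 was called higher (2.94 ± 0.15), TIMP1 passed below the fold limit (0.92, adjusted p = 7.23e-06), and TIMP3 was lower below that limit (-0.75, adjusted p = 0.000186, and -0.90 without vehicle replicate 1).

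Matrix genes moved unevenly. Of 29 tested basement membrane and network genes 18 were called higher and 2 lower (median 2.02, or 1.88 with the 3 genes at the vehicle floor at their bound). COL17A1, a collagen of hemidesmosomes, was at 0 in every vehicle library and at 36.2, 37 and 35.2 CPM with doxycycline, at least 314-fold. The laminin chains LAMA3 and LAMB3 rose by 1.88 ± 0.14 and 6.23 ± 0.13 on the log2 scale. COL6A1, COL6A2 and COL6A3, the chains of collagen VI, rose by 2.87 ± 0.12, 4.18 ± 0.15 and 4.81 ± 0.16. COL13A1 (-1.26 ± 0.11) and the laminin chain LAMA4 (-1.19 ± 0.26, and -0.96 without vehicle replicate 3) fell. COL7A1, the anchoring fibril collagen, stood at 5.37, 1.78 and 1.11 CPM with vehicle and 25.6, 33.7 and 25.3 CPM with doxycycline, with vehicle replicate 1 the highest of its group, and its log2 fold change of 3.36 became 4.24 without it.

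Among fibrillar collagens and the enzymes that process them, 8 of 20 were called higher and 1 lower. COL5A3 (5.62 ± 0.12), COL5A1 (3.19 ± 0.11) and COL1A1 (1.83 ± 0.13) rose, COL2A1, the cartilage collagen, fell (-1.94 ± 0.26), and COL3A1 was slightly lower (-0.29, adjusted p = 0.00211). LOXL2, which crosslinks collagen, stood at 5.68, 7.66 and 7.95 CPM with vehicle and 263, 277 and 249 CPM with doxycycline (log2 fold change 5.21 ± 0.12 (SE), adjusted p = 3.67e-11). The prolyl hydroxylase subunits P4HA2 and P4HA3 rose by 3.63 ± 0.084 and 4.39 ± 0.22, whereas P4HA1 did not pass the test (0.03, adjusted p = 0.865). Of 15 matrix glycoproteins and matricellular proteins, 7 were called higher and 3 lower. TGFBI, a matrix protein induced by TGF-beta, stood at 0.0378, 0.0953 and 0.115 CPM with vehicle and 559, 582 and 543 CPM with doxycycline, at least 4879.6-fold. The proteoglycans DCN and LUM and elastin (ELN) fell by 1.73, 1.65 and 1.04 on the log2 scale.

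Of 20 tested integrin chains 12 were called higher and 0 lower (median 2.12), and 13 without vehicle replicate 1, the added chain being ITGA9. ITGA2, a collagen receptor chain, stood at 9.38, 10.5 and 10.4 CPM with vehicle and 467, 452 and 489 CPM with doxycycline (log2 fold change 5.54 ± 0.078 (SE), adjusted p = 1.13e-12). The laminin-binding chains ITGA3, which pairs with ITGB1, and ITGA6, which pairs with ITGB1 or ITGB4, rose by 5.61 ± 0.17 and 4.48 ± 0.10. ITGA5 and ITGAV, which bind fibronectin and related ligands, rose by 2.31 ± 0.076 and 2.35 ± 0.082, and their common partner ITGB1 by 1.56 ± 0.055. ITGAX, a chain otherwise known from myeloid cells, was at 0 in all vehicle libraries and at 32.7, 35.5 and 26 CPM with doxycycline, at least 273-fold. ITGB4 did not pass the test (0.06, adjusted p = 0.833), and ITGB2, the partner of ITGAX, was lower below the fold limit (-0.50, adjusted p = 0.00455).

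The actin and focal adhesion list gave 16 called higher and 0 lower of 32. PXN, paxillin, stood at 190.0, 204 and 196 CPM with vehicle and 1071, 1104 and 986 CPM with doxycycline (log2 fold change 2.42 ± 0.066 (SE), adjusted p = 1.34e-10). ZYX, zyxin (1.97 ± 0.12), LPP (2.26 ± 0.083) and FERMT2, kindlin-2 (1.25 ± 0.062), rose with the filamin FLNA (1.38 ± 0.081) and with CAVIN1, a coat protein of caveolae (4.61 ± 0.10). TLN1, talin (0.30, adjusted p = 0.00174), and ACTB (0.39, adjusted p = 0.000192) passed the test far below the fold limit. Counted without that limit, 28 of the 32 were higher and 1 was lower, against 26% and 20.7% of all genes. TPM4, a tropomyosin (1.05), lay below the fold limit without vehicle replicate 1 (0.99).

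Filament and lineage genes did not move as a block. Of 9 intermediate filament genes 7 rose and 1 fell. NEFL and NEFM, the light and medium neurofilaments, rose by 2.72 ± 0.089 and 2.86 ± 0.10, NES (nestin) by 2.71 ± 0.14 and LMNA, lamin A/C, by 2.31 ± 0.08. PRPH fell, as given above, and NEFH, the heavy neurofilament, was lower below the fold limit (-0.85, adjusted p = 2.44e-07). In the epithelial list 5 of 15 were called higher and 2 lower. The desmosome protein PKP3 and the keratin KRT80 rose from the floor, at least 114-fold and 144-fold, and the tight junction protein CLDN4 rose by 7.95 ± 0.30, while KRT17 and the cadherin CDH3 fell by 2.32 and 1.44. Of 21 neuronal genes 5 were called higher, with MAP2 (3.81 ± 0.16) and L1CAM (4.72 ± 0.31) among them, and 1 lower, the synaptotagmin SYT4, at the floor with doxycycline and at least 5.18-fold lower. Without vehicle replicate 1 these counts were 4 and 2, since CHGB (1.10 with it and 0.95 without) and the transcription factor ISL1 (-0.98 and -1.05) crossed the fold limit, and CHGB was no longer called without vehicle replicate 3 or doxycycline replicate 3 either.

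Growth factors and their receptors were counted apart. Of 6 EGF family ligands tested, 5 were called higher, but 3 of the 6 were at the vehicle floor, and with these at their bound the median log2 fold change was 2.81. HBEGF stood at 0.719, 0.604 and 0.728 CPM with vehicle and 65.8, 62.5 and 63.3 CPM with doxycycline (log2 fold change 6.55 ± 0.12 (SE), adjusted p = 7.42e-12), and AREG rose at least 59-fold. Of 13 other ligands 7 were called higher, 2 of the 13 being at the vehicle floor, and 1 lower. INHBA, the subunit of activin A, stood at 0.0946, 0.0953 and 0.115 CPM with vehicle and 197, 202 and 189.5 CPM with doxycycline, at least 1705-fold. VEGFC, a growth factor of lymphatic vessels, rose by 5.25 ± 0.29, and TGFB1 by 1.29 ± 0.069. Of 17 receptors 4 were called higher and 3 lower, or 5 and 2 without vehicle replicate 1. AXL and MET, receptor tyrosine kinases for GAS6 and HGF, were among those higher, as was the TGF-beta receptor TGFBR2. AXL stood at 1.02, 1.6 and 1.7 CPM with vehicle and 110.1, 113 and 102 CPM with doxycycline (log2 fold change 6.22 ± 0.15 (SE), adjusted p = 4.22e-11). MET stood at 8.4, 14.4 and 11.1 CPM with vehicle and 266, 251 and 266 CPM with doxycycline (log2 fold change 4.52 ± 0.16 (SE), adjusted p = 9.88e-10). PDGFRB (-1.42 ± 0.17), KIT (-1.41 ± 0.09) and FGFR3 (-1.29 ± 0.24) fell, and FGFR3 no longer passed the fold limit without vehicle replicate 1 (-0.99).

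Feedback inhibitors of MAP kinase signalling were called higher in 8 of 15 tested genes and lower in 1. DUSP5, a nuclear ERK phosphatase, stood at 7.85, 5.15 and 6.26 CPM with vehicle and 128, 125 and 119.6 CPM with doxycycline (log2 fold change 4.28 ± 0.13 (SE), adjusted p = 3.61e-10). DUSP1 rose by 2.19 ± 0.13 and SPRY2 by 2.61 ± 0.20. SPRY1, at about 1 CPM, fell by 1.65. DUSP6 rose by 1.13 ± 0.14, and by 0.96 without vehicle replicate 1, which is below the fold limit.

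Within the list of chemokines and cytokines, interleukins and colony-stimulating factors held most of the calls, with 7 of 8 tested called higher, and 6 without vehicle replicate 1. Of 5 tested chemokines other than those that attract neutrophils, 1 was called higher (median 0.08). Both counts include members at the vehicle floor, 3 of the 8 and 1 of the 5, which had to differ. Of 34 chemokines and cytokines 14 were tested, since the rest had too few reads in either group, and 9 of these were called higher and 0 lower, the cytokine TSLP (1.14, and 0.97 without vehicle replicate 1) being at the limit. The 5 members at the vehicle floor had to differ, and with them at their bound the median log2 fold change of the 14 was 2.23 in place of 3.29. IL11 stood at 0.114, 0.222 and 0.536 CPM with vehicle and 145, 149 and 125 CPM with doxycycline (log2 fold change 8.92 ± 0.23 (SE), adjusted p = 1.07e-10) and LIF at 0.0378, 0.0953 and 0.115 CPM with vehicle and 8.66, 7.45 and 7.57 CPM with doxycycline, at least 68.6-fold. CXCL8, which attracts neutrophils, was at 0 with vehicle and at 2.44, 2.27 and 2.67 CPM with doxycycline. CSF1 rose by 2.76 ± 0.16. In the NF-kB list 6 of 16 were called higher and 0 lower, with TRAF1 (3.28 ± 0.23) and NFKB2 (1.16 ± 0.10) among them, while RELB (1.07) lay below the fold limit without vehicle replicate 1 (0.88) or without doxycycline replicate 1 (0.98). NFKBIA, which holds NF-kB in the cytoplasm, was lower below the fold limit (-0.48, adjusted p = 0.00256).

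Interferon-response genes were called higher in 21 of 34 and lower in 0 (median 1.39), and without vehicle replicate 1 in 19 and 1. The calls of IFI44 (1.01) and BST2 (2.26, adjusted p = 0.0448) ended without it (0.98, and 1.69 with adjusted p = 0.112), and TLR3 was then called lower (-1.64, adjusted p = 0.0235). BST2 lost its call without any 1 of the 6 libraries, and IFI44 also without vehicle replicate 2 or doxycycline replicate 1. GBP2, an interferon-induced GTPase, stood at 1.63, 0.858 and 1.65 CPM with vehicle and 51.3, 50.5 and 49 CPM with doxycycline (log2 fold change 5.21 ± 0.19 (SE), adjusted p = 1.4e-09). ISG15, a ubiquitin-like modifier, rose by 1.77 ± 0.14, IFI16, a DNA sensor, by 1.51 ± 0.083 and IRF1 by 1.51 ± 0.18. Of 17 tested genes of MHC class I presentation 4 were called higher, the heavy chains HLA-B (1.36 ± 0.11) and HLA-C (1.33 ± 0.10), NLRC5 (1.79 ± 0.31) and ERAP2 (2.48 ± 0.20). B2M did not pass (0.07, adjusted p = 0.411), and HLA genes share reads with near-identical copies.

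EWS-FLI1 targets were counted in 2 lists. Of 15 tested genes that the fusion holds down, 8 were called higher and 2 lower (median 1.71), and 11 of the 15 are also members of another list. NT5E (CD73), an enzyme that makes adenosine, stood at 1.29, 0.667 and 1.32 CPM with vehicle and 572, 551 and 582 CPM with doxycycline (log2 fold change 9.05 ± 0.17 (SE), adjusted p = 9.55e-12). TGFBR2, the TGF-beta receptor, stood at 15.2, 20.2 and 20.7 CPM with vehicle and 203, 192 and 201 CPM with doxycycline (log2 fold change 3.41 ± 0.11 (SE), adjusted p = 4.8e-10). IGFBP5 and SPRY1 fell. Of 25 activated genes 1 was called higher and 4 lower, and 6 lower without vehicle replicate 1, with BCL11B (-1.02) and JAKMIP2 (-1.01) added. FATE1, a cancer-testis gene at the vehicle floor, rose at least 4.23-fold. LOXHD1 (-1.74 ± 0.14), GLI1, a Hedgehog pathway factor (-1.30 ± 0.14), PAX7 (-1.27 ± 0.07) and DKK2, a Wnt modulator (-1.15 ± 0.067), fell. By adjusted p alone, 19 of these 25 were lower and 3 higher, against 20.7% and 26% of all genes. NR0B1 was 1 of those higher (0.38, adjusted p = 0.004), and NKX2-2 did not pass (-0.14, adjusted p = 0.501).

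The fusion partners were followed by their gene counts. FLI1, whose 3′ exons are part of the fusion transcript, stood at 85.4, 86.1 and 78.5 CPM with vehicle and 78.4, 73.9 and 72.9 CPM with doxycycline (log2 fold change -0.15 ± 0.067 (SE), adjusted p = 0.0882), and EWSR1 was lower below the fold limit (-0.34, adjusted p = 0.00187). Gene counts do not separate the fusion from the unrearranged genes. Of 15 tested ETS family genes and EWSR1, 5 were called higher and 1 lower. ETS1 rose from the floor at least 37.9-fold, ETS2 rose by 1.19 ± 0.068 and FEV fell by 1.73. Without vehicle replicate 1, 2 were called lower, since ETV5 went from -0.86 (adjusted p = 0.0222) to -1.21.

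Proliferation genes were lower, mostly by less than the fold limit. Of 36 tested genes 0 were called higher and 6 lower, but without the fold limit 35 were lower, against 20.7% of all genes, and 0 higher. The replication genes had a median of -0.95 and the mitosis genes -0.41, and without vehicle replicate 1 -1.02 and -0.28. That library was the lowest vehicle library for 13 of 16 replication genes (median log2 ratio to the others -0.18) and the highest for 18 of 20 mitosis genes (0.17), and its part in the difference between the medians was not tested beyond these values. MCM2, a subunit of the replicative helicase, stood at 279, 331 and 326 CPM with vehicle and 139.6, 156 and 138 CPM with doxycycline (log2 fold change -1.11 ± 0.079 (SE), adjusted p = 4.6e-07). TYMS, thymidylate synthase, stood at 71.3, 69.7 and 65.2 CPM with vehicle and 33.1, 33.3 and 28.8 CPM with doxycycline (log2 fold change -1.11 ± 0.082 (SE), adjusted p = 5.88e-07). MKI67 was lower below the fold limit (-0.45, adjusted p = 0.000747). CDT1, a replication licensing factor, lay just past the fold limit and MCM7 (-0.99) just short of it. CDT1 was not called without vehicle replicate 3, doxycycline replicate 1 or doxycycline replicate 3, MCM7 was called without vehicle replicate 1, doxycycline replicate 1 or doxycycline replicate 2, and without vehicle replicate 1, 8 were called lower.

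Of the cell cycle inhibitors, CDKN1A (p21) stood at 15.9, 34.8 and 35 CPM with vehicle and 90.1, 94.2 and 96.8 CPM with doxycycline (log2 fold change 1.71 ± 0.23 (SE), adjusted p = 7.63e-05) and CDKN2B (p15) rose by 3.06 ± 0.34, while CDKN1B (p27) was lower below the fold limit (-0.66, adjusted p = 0.000134). Vehicle replicate 1 was the lowest vehicle library for CDKN1A, and 2 of 7 tested inhibitors were called higher both with and without it. CCND1, cyclin D1, was slightly lower (-0.35, adjusted p = 0.000432). Of 30 ribosomal protein genes none was called, but 27 were lower without the fold limit, against 20.7% of all genes. Their median was -0.40, and -0.49 without vehicle replicate 1. Of 12 reference genes, YWHAZ was called higher, and the median of the 12 was -0.02.

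Metabolic lists moved in single genes. In the hypoxia and glycolysis list 7 of 31 were called higher and 1, DDIT4, lower. NDRG1, a gene raised by hypoxia and differentiation, stood at 1.78, 1.21 and 1.34 CPM with vehicle and 87, 78.9 and 81.5 CPM with doxycycline (log2 fold change 5.84 ± 0.13 (SE), adjusted p = 3.5e-11), and the glycolytic genes HK1 (1.98 ± 0.08), PFKP (1.02 ± 0.11) and PKM (1.09 ± 0.059) rose. Without vehicle replicate 1, 5 were called higher, since PFKP was then at 0.86 and PFKFB4 at 0.74 (with it 1.02). PFKP also lost its call without doxycycline replicate 2, and PFKFB4 without doxycycline replicate 1 or 3. GAPDH and LDHA did not pass (-0.07 and 0.14, adjusted p = 0.38 and 0.0679). Of 19 genes of cholesterol synthesis and uptake 1 was called higher and 0 lower. The metallothionein MT2A rose by 2.04 ± 0.10.

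The list with the lowest level in vehicle replicate 1 was that of the amino acid stress response, genes that the factor ATF4 switches on when amino acids run short. In that library its 24 tested members had a median log2 ratio of -0.86 to the other vehicle libraries. With all 6 libraries 1 member was called higher and 4 lower (median -0.56), and without it 1 and 9 (median -0.77). Leaving out vehicle replicate 3, doxycycline replicate 1 or doxycycline replicate 3 instead left 2 called lower. CHAC1, which degrades glutathione, stood at 5.11, 28.4 and 119.9 CPM with vehicle and 18.1, 22.8 and 18.7 CPM with doxycycline. All 3 doxycycline libraries lay between vehicle replicates 1 and 2, so the groups overlapped, and the log2 fold change was -1.36 (adjusted p = 0.155) with the library and -1.92 (adjusted p = 2.23e-06) without it. The fit without it leaned mostly on the spread shared across genes (prior degrees of freedom 21.6). Its p-value therefore says little of this gene's own spread between vehicle replicates 2 and 3. Without vehicle replicate 3, the highest, the log2 fold change of CHAC1 was 0.23 (adjusted p = 0.74). PCK2, the mitochondrial PEP carboxykinase, stood at 14.9, 77 and 83.2 CPM with vehicle and 36.6, 36.6 and 28.5 CPM with doxycycline, with log2 fold changes of -0.78 and -1.26 in turn. DDIT4, an inhibitor of mTORC1, stood at 6.7, 16.6 and 58 CPM with vehicle and 5.14, 7.88 and 5.96 CPM with doxycycline (log2 fold change -2.10 ± 0.59 (SE), adjusted p = 0.0118). Its groups overlapped, and the call was lost without vehicle replicate 3, doxycycline replicate 1 or doxycycline replicate 3. SESN2, a leucine sensor, stood at 13.9, 30.9 and 68.9 CPM with vehicle and 25.1, 26.2 and 23.4 CPM with doxycycline, with a fitted change of -0.60 on the log2 scale (adjusted p = 0.251) with the library and -1.02 without it, and 0.14 without vehicle replicate 3. For CHAC1, DDIT4 and SESN2 replicates 2 and 3 also differed by more than 2-fold from each other.

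The others of the 10 genes in which vehicle replicate 1 lay furthest away were HOXB9 (log2 ratio -2.35), ADM2 (-2.32), ATF3 (-1.77), PALM (-1.63), the mitochondrial pseudogene MTND4P12 (1.75) and PGF (1.89). PGF, the placental growth factor, stood at 90.3, 23.8 and 24.1 CPM with vehicle and 138, 141 and 131 CPM with doxycycline and was called higher with the library (1.57 ± 0.41) and without it (2.49). For HOXB9 the fitted value was -0.05 on the log2 scale (adjusted p = 0.944) with it and -0.53 without it. Fibroblast and cholesterol genes were also lower in this library, with median log2 ratios of -0.42 and -0.39. What set the library apart was not tested.

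**Figure D4:**
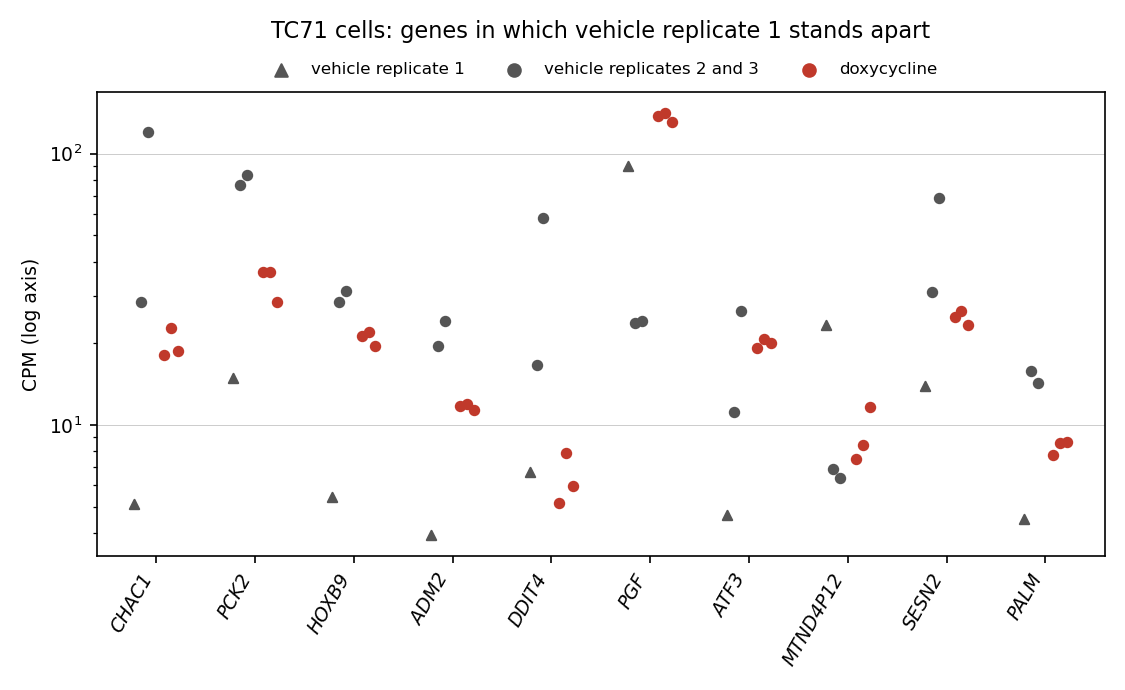
CPM (log axis) of the 10 genes in which vehicle replicate 1 (grey triangles) lay furthest from vehicle replicates 2 and 3 (grey circles), with the doxycycline libraries in red. The triangle is the lowest vehicle point for 8 genes and the highest for PGF and MTND4P12, and for CHAC1, PCK2, HOXB9, ADM2, SESN2 and PALM the red points lie between the triangle and the circles.

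Markers of Ewing sarcoma were present, with 10 of the 11 above 9 CPM in all 6 libraries. CD99 stood at 475, 574 and 606 CPM with vehicle and 765, 752 and 739 CPM with doxycycline, and PAX7 was called lower (-1.27 ± 0.07), joined by BCL11B without vehicle replicate 1. Fibroblast markers went both ways, with FAP, S100A4, PRRX1 and COL1A1 higher and DCN, LUM and PDGFRB lower of 12 tested. Of 10 blood and endothelial markers 9 were at or under the floor in all vehicle libraries and 4 in all 6, and the leukocyte marker PTPRC reached no more than 0.144 CPM. PECAM1 and VWF, known from endothelium, were at 0 with vehicle and were called higher, at 4.21, 3.19 and 3.46 and 0.239, 0.284 and 0.361 CPM, while CDH5, another endothelial marker, stayed between 0 and 0.237 CPM.

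Where the TC71 response differed from that of EW8 was tested in a fit of all 12 libraries, as the difference of the responses. Of 21013 genes tested, 878 had a response more than 1 higher on the log2 scale in TC71 (4.18%) and 603 more than 1 lower (2.87%), and without TC71 vehicle replicate 1 the counts were 791 and 846. Of the 5 genes with the largest positive difference, FLNC alone had a TC71 vehicle library above the floor. It stood at 0.115, 0.322 and 0.155 CPM with vehicle and 528, 578 and 504 CPM with doxycycline in TC71, and at 248, 277 and 283 CPM with vehicle and 2596, 2451 and 2174 CPM with doxycycline in EW8 (difference 8.18 ± 0.18 (SE), adjusted p = 5.15e-15). FLNC ended higher in EW8 but rose further in TC71, where it started near 0. KCNN4, a calcium-activated potassium channel, stood at 0, 0 and 0 CPM with vehicle and 32.2, 36.5 and 29.4 CPM with doxycycline in TC71, and at 0.0902, 0.174 and 0.503 CPM with vehicle and 6.35, 7.09 and 4.41 CPM with doxycycline in EW8. TMEM176B, CGB1, a gene of the chorionic gonadotropin beta cluster whose copies are near-identical, and PECAM1 completed the 5, all at the floor in TC71 vehicle.

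Among genes with a negative difference, BIRC3, an inhibitor of apoptosis and NF-kB target, stood at 1.2, 1.48 and 1.4 CPM with vehicle and 0.945, 1.24 and 1.73 CPM with doxycycline in TC71, and at 0.0902, 0.349 and 0.18 CPM with vehicle and 15.7, 14.1 and 14.4 CPM with doxycycline in EW8 (difference -6.20 ± 0.41 (SE), adjusted p = 4.12e-09). TC71 libraries overlapped for this gene and EW8 libraries did not. CXCL2, a chemokine for neutrophils, reached 87.6 ± 11.1 CPM (SD, n = 3) in EW8 with doxycycline and no more than 0.318 CPM in TC71. SH2D4A was already at 9.01, 8.81 and 11.5 CPM in TC71 vehicle and near 0 in EW8 vehicle. DOK5, an adaptor of receptor kinases, was lower with doxycycline in both lines and had the larger fitted decrease in TC71, where it stood at 0.496, 0.934 and 0.543 CPM with vehicle and 0, 0 and 0 CPM with doxycycline, against 19.9, 17.1 and 18.8 CPM with vehicle and 6.53, 7.27 and 7.9 CPM with doxycycline in EW8. With 0 counts in TC71 after induction, the size of its difference depends on the prior count.

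**Figure D5:**
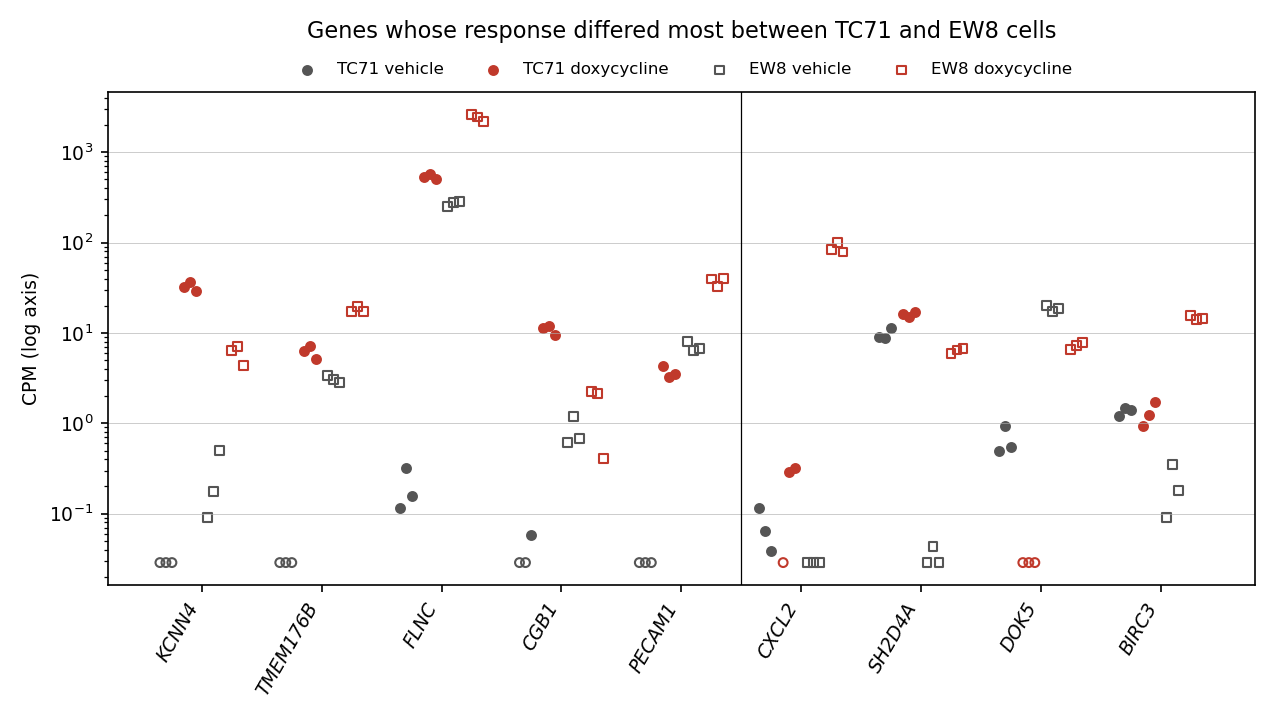
CPM (log axis) of 9 genes with large tested differences between the lines in each of the 12 libraries, circles for TC71 and squares for EW8, grey for vehicle and red for doxycycline. Genes left of the line had a positive difference (log2 response in TC71 minus that in EW8) and those right of it a negative one, among which DOK5 was lower with doxycycline in both lines, and symbols at the foot of the axis are libraries with 0 counts.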

How the data were processed

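The authors aligned the reads of 12 libraries to hg38 with STAR and counted them per gene with featureCounts 2.0.1 and the GENCODE 29 annotation, and the counts are used here as deposited, not normalized, for 58721 genes. Per the file headers the counting was run without settings for strand, read pairs or reads over several genes, so each mate of a pair is 1 count and reads shared by overlapping genes are left out, and all libraries name the same sequencing lane. Gene names came from the reference table by identifier (99.1% of genes matched). Genes were filtered with filterByExpr, scaled by TMM and tested in the 6 TC71 libraries with edgeR 4.0.16 (quasi-likelihood test, Benjamini-Hochberg adjustment over all genes tested). Calls needed an adjusted p below 0.05 and a log2 fold change beyond 1 in either direction, and counts without that fold limit are given as such. The difference between lines was the interaction term in the same kind of fit over 12 libraries. Each SE is the absolute log2 fold change divided by the square root of the test's F value. It is not a separately fitted standard error, and for genes with few reads in a group it can lie below counting noise.

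Genes were named by these rules: JUN, FOS, FN1, VIM, FAP and VCL; the 10 largest rises and falls in fold change of protein-coding genes with a mean of at least 10 CPM in the higher group and, for rises, a vehicle library above 6 counts; the 10 largest rises and falls in CPM among called genes; the 10 genes in which vehicle replicate 1 lay furthest from replicates 2 and 3; the 5 largest differences between lines in each direction; and members of 30 gene lists, except that some of these genes are not reported here. The members and lists were chosen with earlier results of these data known. Folds against a group at or under 6 counts in every library are bounds set at 6 counts per library. The same replicate number in both groups did not mark pairs (correlations of deviations -0.0164, 0.0122 and -0.0346). Alternatives were median-ratio and library-size scaling, no filter, DESeq2 1.42.0, limma 3.58.1 voom with sample weights, a replicate block, all 12 libraries in 1 fit, and leaving out each library. The scripts were tested on simulated data.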

Additional observations from a re-analysis of the deposited data

Results flagged for a closer look

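The response to doxycycline differed between TC71 and EW8 for 9 genes by the interaction test over all 12 libraries, chosen from the 5 largest differences in each direction (log2 response in TC71 minus that in EW8). KCNN4 (9.20), TMEM176B (8.70), FLNC (8.18), CGB1 (8.09) and PECAM1 (8.08) had the larger log2 rise in TC71. Of these, TMEM176B, FLNC and PECAM1 ended at a higher CPM in EW8. CXCL2 (-13.60), SH2D4A (-7.88) and BIRC3 (-6.20) had a lower response in TC71, and DOK5 (-6.67) was lower with doxycycline in both lines, with the larger fitted decrease in TC71. FLNC and BIRC3 were above the floor in at least 1 library of every group. For the other 7 at least 1 group lay at or under the floor, so the size of the fitted difference depends on the prior count. All 9 passed the test under each of the 18 alternatives run for them, including without TC71 vehicle replicate 1.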

How the results depend on the processing

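Over the alternatives other than leaving out a library, the genes called higher in TC71 numbered 2043 to 2583 and those called lower 569 to 829, against 2245 and 642. Leaving out 1 library gave 2138 to 2360 and 618 to 714, 4092 to 5128 and 3114 to 4547 without the fold limit (4745 and 3779), 5.08 to 5.35 for JUN and 7.03 to 7.12 for FOS on the log2 scale, and 689 to 898 and 546 to 846 genes with a higher or lower response in TC71 than in EW8. These 8 results kept their direction and stayed within 1.5 times of their value in all 114 comparisons. With the replicate number as a block, 2199 genes were called higher and 569 lower, and 815 and 542 in the comparison of lines; the numbers were not found to pair the libraries. Scaling by library size alone shifted the median log2 fold change of all genes by -0.098 and the share of calls that were higher from 77.8% to 71.1% (from 55.7% to 45.9% without the fold limit). PKM then lay below the fold limit (0.99).

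Of 780 comparisons of list counts 41 moved by over 1.5 times, in 18 counts that are mostly between 0 and 2, and with library size alone 10 proliferation genes, 7 genes activated by EWS-FLI1 and 4 hypoxia and glycolysis genes were called in the directions given above. For single genes, 2430 of 2509 comparisons were unchanged in direction and call. Of the genes with no call, B2M (-0.03), ITGB4 (-0.04) and P4HA1 (-0.07) changed sign with library size alone, ITGB4 with voom (-0.03) and HOXB9 with the block (0.23). Leaving out 1 library gave ITGB4 values from -0.08 to 0.15, P4HA1 from -0.09 to 0.08, HOXB9 from -0.53 to 0.29, CHAC1 from -1.92 to 0.23 and SESN2 from -1.02 to 0.14. For these genes the cause was not tested. Without a filter on low counts the prior degrees of freedom were infinite and 98 adjusted p-values came out as 0, so single p-values of that fit are not given. Genes at or under 6 counts, about 0.115 CPM in the vehicle libraries, give only bounds.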
